A study of Mus musculus with 6 samples.

Results

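Transcripts of 86 genes of the mitochondrial respiratory chain and ATP synthase were followed in brown adipose tissue (BAT) of mice after regulatory T (Treg) cells had been targeted with diphtheria toxin. The genes were taken by symbol from a table of 25206 features, 23185 of which carry a gene symbol. A feature was a member if its symbol, brought up to date by Entrez number, starts with Nduf, Uqcr, Atp5 or Cox followed by a digit from 4 to 8, or is Sdha, Sdhb, Sdhc or Sdhd. Grouped by the start of the symbol, 35 members were counted under complex I (NADH dehydrogenase) and 4 under complex II (succinate dehydrogenase). Another 7 were counted under complex III (the cytochrome bc1 complex), 17 under complex IV (cytochrome c oxidase) and 12 under complex V (ATP synthase). Another 8 are assembly factors of complex I (Ndufaf genes), and 3 are pseudogenes (Ndufs5-ps, Uqcrh-ps1 and Atp5c1-ps) that carry the same name stems.

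All 6 mice were FoxP3 DTR B6 females, in which the Foxp3 promoter drives the receptor for diphtheria toxin, so that Foxp3-expressing cells anywhere in the body can be killed by the toxin. The 3 DT mice (DT 5, DT 9 and DT 16) were given diphtheria toxin and the 3 PBS mice (PBS 12, PBS 18 and PBS 20) phosphate-buffered saline, in each case by intraperitoneal injection on 2 consecutive days. The PBS mice carry the receptor too, and toxin-treated mice without the receptor were not analysed here. Both groups had spent 1 week singly housed at 22°C and then 2 days in the cold, at 4°C per the labels and the results section of the paper (its methods name a less severe cold). Ages are not in the labels. Each mouse gave 1 array of whole BAT, with 1 log2 signal per gene.

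The respiratory chain passes electrons from NADH (complex I) and succinate (complex II) through coenzyme Q, complex III and cytochrome c to oxygen at complex IV, while complexes I, III and IV pump protons out of the mitochondrial matrix. ATP synthase lets the protons flow back and makes ATP. In brown adipocytes the protons also return through uncoupling protein 1 (Ucp1), which releases the energy as heat, so that BAT is known for abundant mitochondria and a high capacity for respiration.

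Array quality and composition bear on every value below. The 6 arrays share 1 distribution (median 5.1, range 3.01 to 14.1), so that values are relative within an array and a shift common to all genes cannot be seen. Foxp3, the gene whose promoter drives the receptor, was read at 4.30, 4.40 and 4.49 in DT mice and at 4.55, 4.41 and 4.72 in PBS mice, below the array median in each, and did not pass the test (limma, adjusted p = 0.587). The paper measured Foxp3 by real-time RT-PCR in BAT and spleen and reports that the toxin quickly depleted the cells expressing it. Ucp1 was at 13.98 to 14.01 in all 6 arrays, and 17 of 17 measured brown adipocyte markers lay above the array median with 0 called, which bears out the labelled tissue. Of 18 measured macrophage markers 6 were called higher and 0 lower, where 1.29% of all features were called higher and 0.444% lower. The mean log2 signal of the 18 markers was 7.71 to 7.89 in DT mice against 6.78 to 7.05 in PBS mice. Gpnmb, Lgals3, Ctss and Cd68 led them, with differences of 3.75, 2.45, 1.91 and 1.83, while 4 of the 18 had differences below 0, among them Cx3cr1 (-0.33, adjusted p = 0.11). The mean of 18 skeletal muscle markers differed between arrays rather than groups, at 9.25, 9.36 and 6.26 in DT 5, DT 9 and DT 16 and at 7.44, 9.16 and 8.02 in PBS 12, PBS 18 and PBS 20. None of 10 lymphocyte markers was called (median -0.05, 4 above 0), with Cd4 at -0.30 and Cd3g at 0.34. None of 12 endothelial markers was called either (median -0.02, 5 above 0), with Emcn at -0.27 and Cldn5 at 0.33.

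No member of the respiratory chain or ATP synthase passed the test in cold-exposed BAT after DT. Of the 86 members, 0 were called higher and 0 lower (limma over all features, Benjamini-Hochberg, adjusted p below 0.05), where 1.29% of all features were called higher and 0.444% lower. The smallest adjusted p among them was 0.146, for the ATP synthase subunit Atp5c1. At an unadjusted limma p below 0.05, 10 members were lower and 0 higher, against 6.83% of all features lower and 6.43% higher.

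Small differences ran mainly downwards. The median log2 difference (DT minus PBS) over the 86 members was -0.08, or 1.06-fold lower in DT mice, with quartiles of -0.14 and -0.03, and the median over all features was -0.01. A difference below 0 was seen in 71 of 86 members (82.6%) and in 54% of all features. In 21 members all 3 DT values lay below all 3 PBS values (24.4%, against 10.1% of all features), and in 1 member, Cox6a1, all 3 lay above them (8.51% of all features). The share of features with the downward pattern rose with signal, from 5.63% at log2 signals of 3 to 5.1 to 18.5% above 13. Since 81 of the 86 members lay above the array median, 10.1% is a low background for them. In bulk tissue, fewer cells of a type and less RNA per cell cannot be told apart. The macrophage markers given above moved with the groups, and their part in these differences was not tested.

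The intervals show how large a change the arrays leave room for. The 95% confidence interval of the difference (limma, unadjusted) lay within 2-fold either way in 84 of 86 members, as it did in 96.9% of all features, and within 1.5-fold in 82. The exceptions to the 2-fold range were both subunits of complex IV, Cox7b (-1.23 to 0.002) and Cox6a2 (-0.72 to 1.47). Ndufaf2 (-0.69 to 0.09) and Ndufa7 (-0.60 to 0.02) reached past 1.5-fold on the lower side only. For the other members a difference of signal above 1.5-fold was outside the interval, which does not limit the change of a transcript where the signal lies at the floor of the array (Ndufb3, Cox7b2, Cox8c) or at its top (Cox6a1, Ndufs7, Atp5b).

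**Figure D1:**
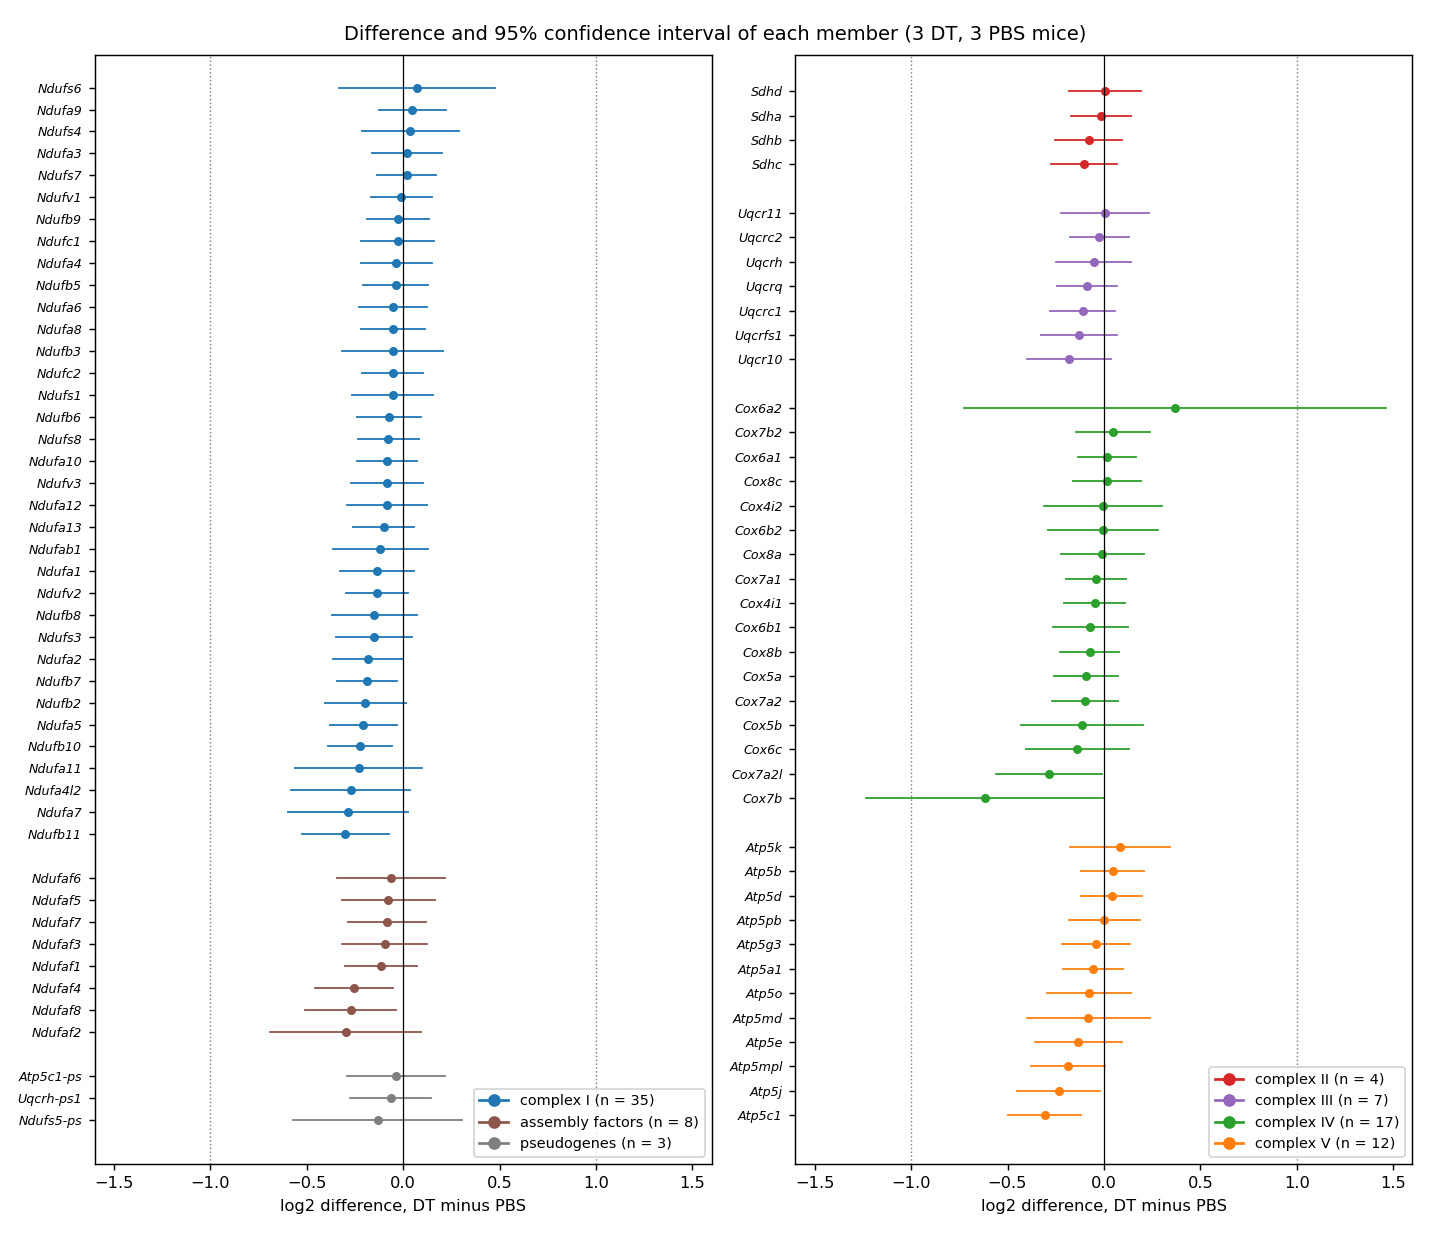
Log2 difference (DT minus PBS) of each of the 86 members, with its 95% confidence interval (limma, 3 DT and 3 PBS mice), ordered within complexes I to V, assembly factors and pseudogenes. The dotted lines mark 2-fold either way. Most points lie just left of 0, and only the intervals of Cox7b and Cox6a2 reach beyond 2-fold.

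By array, the members separated the groups by a small margin. The median over members of the deviation from a gene's mean over the 6 arrays was -0.05 in DT 5, -0.04 in DT 9 and -0.05 in DT 16, and 0.06, 0.01 and 0.04 in PBS 12, PBS 18 and PBS 20. PBS 18 lay nearest to the DT arrays. It held the lowest PBS value in 39 of the 86 members, and in 8480 of the 25206 features. Without PBS 18, 41 members had all DT values below all remaining PBS values (17.9% of all features then did), and 1 member, Cox7b, was called.

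**Figure D2:**
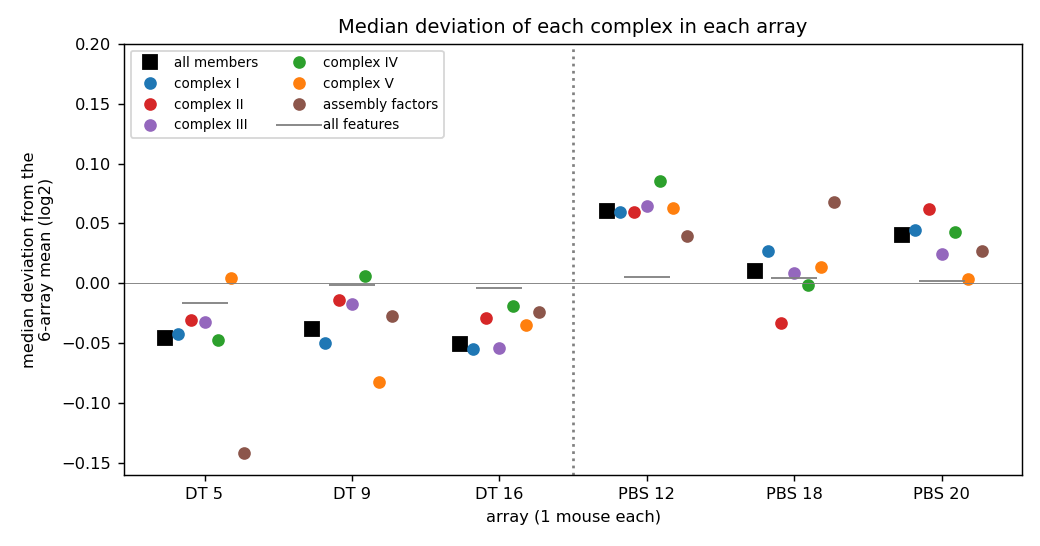
Median deviation from the 6-array mean (log2) in each array, for all members (squares), for the members of each complex and the assembly factors (circles) and for all features (grey lines). The squares lie between -0.05 and -0.04 in the DT arrays and between 0.01 and 0.06 in the PBS arrays.

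The differences also varied with signal. Members with a mean log2 signal between 8 and 11 had a median difference of -0.15, and all 22 of them lay below 0. In 8 of the 22 the groups did not overlap, against 17.1% of the 5120 features in that range, whose median was -0.02. Between 5.1 and 8 the 13 members had a median of -0.13 (all features -0.03), and between 11 and 13 the 35 members had a median of -0.06 (all features -0.01). All DT values lay below all PBS values in 3 of these 13 members, against 12.3% of features. Between 11 and 13 they did so in 7 of 35 members, against 17.3% of features. The 11 brightest members, above 13, had a median of -0.01, the same as all 65 features there. In 3 of these 11 all DT values lay below all PBS values, against 18.5% of those features. At this top end, quantile normalization gives genes of equal rank the same value, and Cox6a1, Ndufs7 and Atp5b each held 1 value in all 3 PBS arrays (13.98, 13.95 and 13.78). The 5 members below 5.1 were read at or near the floor of the array.

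**Figure D3:**
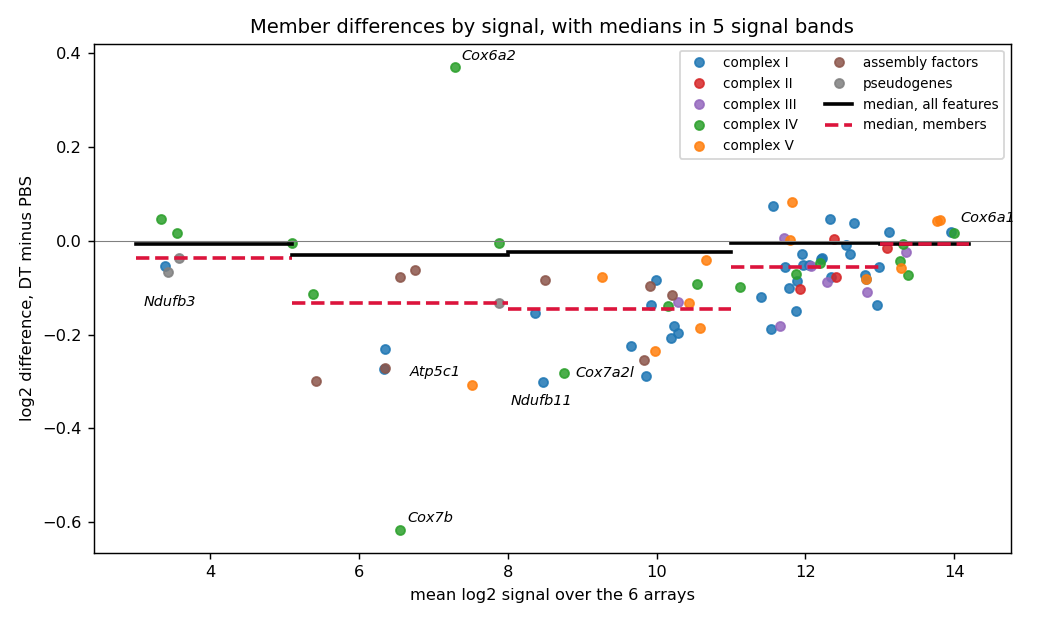
Log2 difference (DT minus PBS) of the 86 members against mean log2 signal over the 6 arrays, coloured by complex. Lines give the median of all features (solid) and of the members (dashed) in 5 signal bands, and the members' line lies lowest, at -0.15, between 8 and 11 and meets the other above 13.

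The start regions of some of these genes hold sequence elements known from nuclear genes for mitochondrial proteins. Promoter windows of 300 bases (250 before and 50 after the start, RefSeq, GRCm38.p6) were found for 68 of the 86 members. They were searched on both strands for the letters GCATGCGC (bound by NRF1), CCGGAAG (bound by ETS factors such as GABPA) and AAGATGGC (bound by YY1). The NRF1 letters stood in 10 members (14.7%, against 3.05% of 27025 genes), the ETS letters in 17 (25% against 9.93%) and the YY1 letters in 10 (14.7% against 3.19%). At least 1 of the 3 stood in 31 members (45.6% against 14.9%), among them 14 of 31 windows of complex I, 2 of 3 of complex II, 3 of 5 of complex III, 3 of 12 of complex IV, 5 of 10 of complex V and 4 of 7 of assembly factors. A match is a description of letters and not a site shown to be bound. The mRNA of Nrf1 itself differed by -0.17 (adjusted p = 0.421). Those of Gabpa, Gabpb1 and Yy1 differed by 0.04, 0.09 and 0.05 (adjusted p = 0.919, 0.744 and 0.872).

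Stretches of 6 members named below that hold 2 kinds of these letters are printed 5′ to 3′ on the strand of the gene, with the matches in capitals, to show how the elements sit near the start. NRF1 matches can overlap on both strands, since GCATGC reads the same on either, and CTTCCGG is the ETS element read on the other strand. Atp5j lies at chr16:84835021-84835074 (minus strand), Atp5k at chr5:108434371-108434459 (minus), Cox6a1 at chr5:115348958-115349130 (minus), Ndufaf8 at chr11:120098916-120098961 (plus), Sdhb at chr4:140961207-140961293 (plus) and Uqcr11 at chr10:80406808-80406897 (minus).
Atp5j: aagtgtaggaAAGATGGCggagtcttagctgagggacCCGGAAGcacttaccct
Atp5k: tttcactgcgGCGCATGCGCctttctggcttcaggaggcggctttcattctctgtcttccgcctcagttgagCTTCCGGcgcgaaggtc
Cox6a1: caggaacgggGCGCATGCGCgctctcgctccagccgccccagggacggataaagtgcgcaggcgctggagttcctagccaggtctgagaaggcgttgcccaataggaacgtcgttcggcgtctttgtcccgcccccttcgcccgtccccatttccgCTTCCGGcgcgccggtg
Ndufaf8: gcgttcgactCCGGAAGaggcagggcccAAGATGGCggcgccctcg
Sdhb: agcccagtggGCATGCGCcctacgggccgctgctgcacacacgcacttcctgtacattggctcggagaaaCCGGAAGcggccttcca
Uqcr11: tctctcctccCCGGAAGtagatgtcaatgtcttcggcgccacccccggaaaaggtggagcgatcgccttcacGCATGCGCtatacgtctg
These 6 genes had differences from -0.27 (Ndufaf8) to 0.08 (Atp5k). They come from members named partly for large differences in either direction, so that both signs follow in part from that choice. Differences of members with and without these elements were not compared.

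Complex I had a median difference of -0.08, with 30 of 35 members below 0 and 0 called. In 11 of the 35 (31.4%) all DT values lay below all PBS values, as in 10.1% of all features. In the signal bands above 8, 17.1% to 18.5% of features had this pattern. Ndufb11, an accessory subunit of the membrane arm, was read at 8.21, 8.49 and 8.28 in DT 5, DT 9 and DT 16 and at 8.63, 8.71 and 8.55 in PBS 12, PBS 18 and PBS 20. The groups did not overlap, though DT 9 and PBS 20 lay close. Its difference of -0.30 (SE 0.10, 95% interval -0.53 to -0.08, adjusted p = 0.234) had the largest size of any in this complex. Ndufb10, another accessory subunit of the membrane arm, was at 9.51, 9.59 and 9.52 in DT mice and at 9.71, 9.80 and 9.79 in PBS mice. Its replicates lay close together and the groups were apart, with a difference of -0.22 (SE 0.07, adjusted p = 0.227).

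Some differences of complex I rested on single arrays. Ndufa7, an accessory subunit of the peripheral arm, was at 9.72, 9.75 and 9.67 in DT mice and at 10.25, 9.71 and 10.04 in PBS mice. PBS 18 lay inside the DT range, and the difference of -0.29 (SE 0.13) had an adjusted p of 0.425. It was -0.17 without PBS 12 and -0.43 without PBS 18. Ndufa4l2, a paralogue of Ndufa4 known as a target of hypoxia-inducible factor, was at 5.91, 6.33 and 6.34 in DT mice and at 6.37, 6.45 and 6.58 in PBS mice. Its groups were apart only by a gap of 6.34 against 6.37, with a difference of -0.27 (adjusted p = 0.446) that was -0.13 without DT 5. Ndufa4 itself, a small protein now placed with complex IV, differed by -0.04 (adjusted p = 0.912). Both genes are counted here under complex I by symbol only.

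The members of complex I with the largest differences above 0 were Ndufs6 and Ndufa9. Ndufs6, a zinc-binding accessory subunit, was at 11.68, 11.64 and 11.47 in DT mice and at 11.12, 11.74 and 11.72 in PBS mice. PBS 12 was the low array, while PBS 18 and PBS 20 lay above all DT arrays, and the difference was 0.07 (SE 0.17, adjusted p = 0.918), or -0.13 without PBS 12. Ndufa9, which lies near the coenzyme Q site, differed by 0.05 (adjusted p = 0.868), with overlapping groups. Of the measured core subunits, which do the electron transfer and are grouped here by textbook role, Ndufs3 (-0.15), Ndufv2 (-0.14) and Ndufs8 (-0.08) had groups apart. Ndufs1 (-0.06), Ndufv1 (-0.01) and Ndufs7 (0.02) did not. Ndufb3 was read at 3.23 to 3.60, near the floor, so that little can be read from its difference of -0.05.

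The assembly factors of complex I, proteins that help to build the complex without staying in it, all had differences below 0 (8 of 8, median -0.11, 0 called). Ndufaf4 was at 9.59, 9.77 and 9.75 in DT mice and at 10.03, 9.85 and 9.99 in PBS mice, with no overlap and a difference of -0.25 (SE 0.09, adjusted p = 0.262). Ndufaf8, a partner of the assembly factor Ndufaf5, was at 6.21, 6.09 and 6.34 in DT mice and at 6.40, 6.42 and 6.63 in PBS mice. These groups did not overlap either, at a difference of -0.27 (SE 0.10, adjusted p = 0.299). Ndufaf2, which acts late in assembly, was at 5.32, 4.99 and 5.49 in DT mice and at 5.41, 5.86 and 5.44 in PBS mice. Its signal lay near the array median and its groups overlapped, with a difference of -0.30 (SE 0.17, adjusted p = 0.527) that was -0.15 without PBS 18 and -0.16 without DT 9.

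Complex II, which also serves the citric acid cycle, differed little in any of its 4 subunits, and none had groups apart. Sdha, the flavoprotein that oxidises succinate, was at 13.10, 13.06 and 13.11 in DT mice and at 13.12, 13.11 and 13.08 in PBS mice. That difference of -0.02 had an interval of -0.17 to 0.14 (adjusted p = 0.958). Sdhb, the iron-sulphur subunit, differed by -0.08 (interval -0.25 to 0.10). The membrane anchors Sdhc and Sdhd differed by -0.10 (-0.27 to 0.07) and by 0.005 (-0.18 to 0.19). PBS 18 was the lowest PBS array in Sdhb, Sdhc and Sdhd. Of 12 measured enzymes of the citric acid cycle, 0 were called, with a median of -0.02 (Idh3g -0.08, Suclg1 -0.07).

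Complex III had a median difference of -0.09, with 6 of 7 members below 0. Uqcr10, a small subunit, was at 11.42, 11.69 and 11.59 in DT mice and at 11.81, 11.76 and 11.67 in PBS mice. DT 9 and PBS 20 overlapped by a small margin, and the difference was -0.18 (SE 0.09, adjusted p = 0.472), or -0.11 without DT 5. Uqcrfs1, the Rieske iron-sulphur protein, was at 10.26, 10.18 and 10.24 in DT mice and at 10.41, 10.22 and 10.45 in PBS mice, with PBS 18 inside the DT range and a difference of -0.13 (SE 0.08, adjusted p = 0.605). Leaving out PBS 18 or PBS 20 gave -0.20 or -0.09. The groups were apart in the core subunit Uqcrc1 (-0.11) and in Uqcrq (-0.09). Uqcr11 differed by 0.006 (adjusted p = 0.99). Cytochrome c1 (Cyc1), a subunit whose name the symbols above do not match, differed by -0.05 (adjusted p = 0.841), and the subunits encoded by mitochondrial DNA were not analysed here.

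Complex IV had a median difference of -0.05 and held both the lowest and the highest difference of all members. In 2 of its 17 members (11.8%) all DT values lay below all PBS values, as in 10.1% of all features. In the signal bands above 5.1, 12.3% to 18.5% of features had this pattern. Cox7b, a small subunit of the oxidase, was at 6.31, 6.0 and 6.44 in DT mice and at 7.14, 6.23 and 7.22 in PBS mice. PBS 12 and PBS 20 lay above every DT array, while PBS 18 lay between DT 9 and DT 5. The difference was -0.62, or 1.53-fold lower (SE 0.26, adjusted p = 0.379). Without PBS 18 it was -0.93 with an adjusted p of 0.0387, the only call of any member at an adjusted p below 0.05 under the settings tried.

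Cox7a2l, a relative of Cox7a studied for a role in supercomplexes of complexes III and IV, was at 8.51, 8.49 and 8.86 in DT mice and at 8.91, 8.80 and 8.99 in PBS mice. DT 16 overlapped PBS 18, and the difference was -0.28 (SE 0.12, adjusted p = 0.361). Cox5b was read at 5.16 to 5.63, near the array median, so that its difference of -0.11 says little about an essential subunit.

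Several subunits of complex IV exist as isoforms of different tissues. Of the forms of heart and skeletal muscle, Cox7a1 and Cox8b, which are also used as brown adipocyte markers, gave signals near the top of the array range. Cox7a1 was at 13.27, 13.23 and 13.25 in DT mice and at 13.27, 13.27 and 13.33 in PBS mice, and Cox8b at 13.34, 13.36 and 13.32 and at 13.42, 13.40 and 13.42. Both had groups apart at small differences of -0.04 (interval -0.20 to 0.11) and -0.07 (-0.23 to 0.08). For Cox7a1 the gap was only 13.265 in DT 5 against 13.273 in PBS 12 and PBS 18. The ubiquitous forms Cox7a2 (-0.10), Cox4i1 (-0.05), Cox6b1 (-0.07), Cox8a (-0.01) and Cox6a1 (0.02) had overlapping groups, except Cox6a1. In Cox6a1 the DT values of 13.98 to 14.01 lay above the PBS value of 13.98 by a margin that was lost when quantile normalization was repeated and under cyclic loess. The lung form Cox4i2 differed by -0.005, with 7.82 to 7.97 in DT mice and 7.59 to 8.06 in PBS mice. The testis forms Cox6b2, Cox7b2 and Cox8c were weak, at 4.87 to 5.26, 3.25 to 3.44 and 3.48 to 3.62, and differed by -0.006, 0.05 and 0.02.

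**Figure D4:**
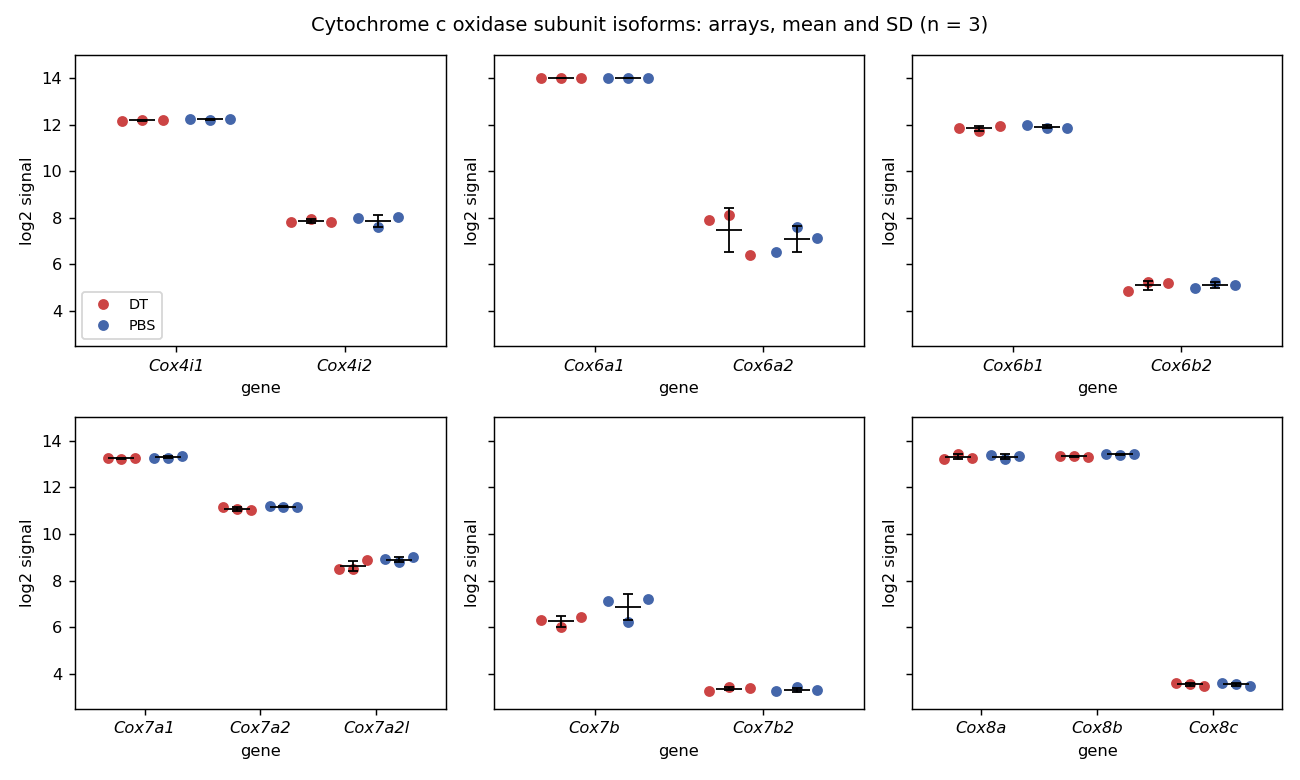
Log2 signal of the isoforms of 6 complex IV subunits in each array (points, red DT, blue PBS), with the mean and SD (bars, n = 3). The groups lie on top of each other in most panels, Cox7b has PBS 18 among the DT arrays, and Cox6a2 spreads within both groups.

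Cox6a2, the other form of heart and skeletal muscle, varied between mice more than any other member (residual SD 0.76). It was at 7.91, 8.11 and 6.40 in DT mice and at 6.53, 7.62 and 7.15 in PBS mice. DT 5, DT 9 and PBS 18 were the 3 highest arrays and DT 16 the lowest, and the difference was 0.37 (SE 0.47, adjusted p = 0.824), from 0.05 without DT 9 to 0.90 without DT 16. The same 3 arrays were the highest, and DT 16 the lowest, in 17 of 18 skeletal muscle markers. Titin (Ttn), for example, was at 9.41, 9.41 and 5.51 in DT mice and at 6.54, 8.97 and 7.87 in PBS mice. Among the 86 members, only Cox6a2 and Atp5md shared this order, as did 312 of all 25206 features. Atp5md, a small subunit of ATP synthase, was at 12.87, 12.97 and 12.49 in DT mice and at 12.82, 12.98 and 12.77 in PBS mice. The part of muscle RNA in the values of Cox6a2 and Atp5md was not tested.

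**Figure D5:**
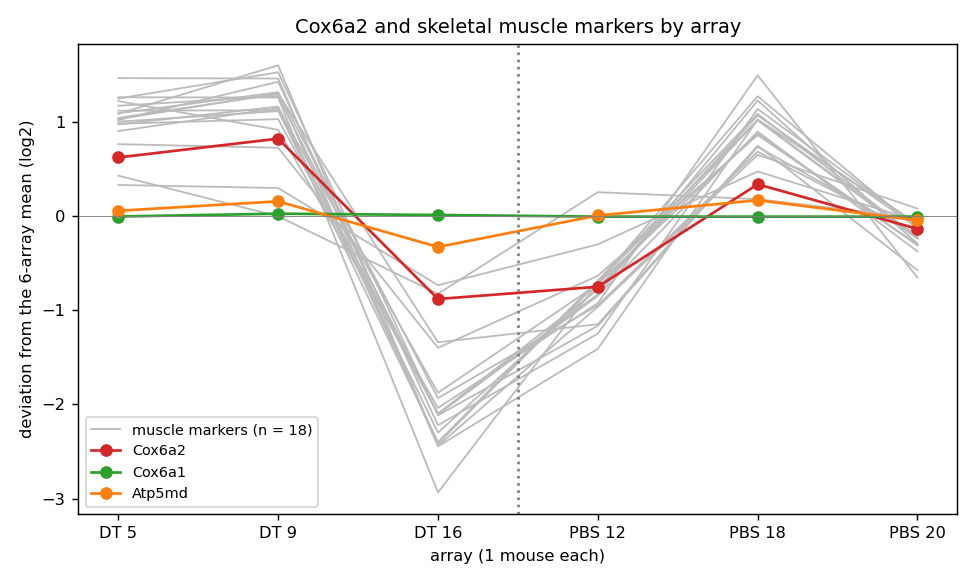
Deviation from the 6-array mean (log2) in each array for 18 skeletal muscle markers (grey lines) and for Cox6a2, Atp5md and Cox6a1. Cox6a2 follows the markers, high in DT 5, DT 9 and PBS 18 and lowest in DT 16, Atp5md does so on a smaller scale, and Cox6a1 stays at 0.

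Complex V had a median difference of -0.07, with 8 of 12 members below 0 and the smallest p of all members. From gene set enrichment on BAT arrays, the paper reports that ATP metabolic processes were upregulated in Treg-deficient BAT. Those gene sets were not tested here. Atp5c1, the gamma subunit whose rotation drives catalysis, was at 7.28, 7.37 and 7.43 in DT mice and at 7.62, 7.63 and 7.76 in PBS mice. Every DT array lay below every PBS array, and the difference was -0.31, or 1.24-fold lower (SE 0.08, interval -0.50 to -0.12, adjusted p = 0.146). Atp5j, the coupling factor of the stalk, was at 9.90, 9.84 and 9.85 in DT mice and at 10.27, 9.99 and 10.02 in PBS mice. Its groups were apart, with PBS 12 the highest, and the difference was -0.23 (SE 0.09, adjusted p = 0.335), or -0.15 without PBS 12.

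Other subunits of ATP synthase differed less or not in the same direction. Atp5mpl (-0.19) and the alpha subunit Atp5a1 (-0.06) also had groups apart. Atp5k, subunit e of the membrane part, was at 11.87, 11.72 and 11.99 in DT mice and at 11.96, 11.73 and 11.64 in PBS mice, with a difference of 0.08 (SE 0.11, adjusted p = 0.837). The catalytic beta subunit Atp5b was at 13.83, 13.77 and 13.89 in DT mice and at 13.78 in each PBS mouse. That difference of 0.04 (interval -0.12 to 0.21) was within overlapping groups. Atp5g3, which encodes the c subunit of the proton-driven ring, differed by -0.04 (adjusted p = 0.894). The vacuolar proton ATPase, a related pump of lysosomes, had 2 of 23 measured genes called, both higher (1.29% of all features were called higher). Atp6v0d2 was at 7.21, 7.35 and 7.17 in DT mice and at 4.00, 3.68 and 4.00 in PBS mice (difference 3.35), and Tcirg1 differed by 0.55 (adjusted p = 0.0471). With any 1 of the 6 arrays left out, Tcirg1 lost its call (adjusted p 0.0582 to 0.166), while Atp6v0d2 kept its own.

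Genes around the chain gave further small differences. Of 39 measured assembly factors other than the Ndufaf genes, 36 had differences below 0 (median -0.11). In this list 1 gene was called lower, where 0.444% of all features were. It was Cox19, which helps copper reach complex IV. Cox19 was at 9.64, 9.66 and 9.63 in DT mice and at 10.00, 10.10 and 9.98 in PBS mice, and fell by 0.38 after DT (SE 0.07, adjusted p = 0.0484). In none of the 6 fits that leave out 1 array did Cox19 pass (adjusted p 0.108 to 0.183). Of 13 measured genes of cytochrome c and coenzyme Q synthesis, 0 were called (median -0.10), among them Pdss2 (-0.18), which lengthens the tail of coenzyme Q, and cytochrome c itself (Cycs, -0.32). Of 19 measured regulators of respiratory genes, 0 were called, with a median of -0.08, 10 of them below 0 and 9 above it. The coactivator Ppargc1a differed by 0.37 (adjusted p = 0.396) and the mitochondrial translation factor Mtif3 by -0.46 (adjusted p = 0.0666). Tfam, which packages mitochondrial DNA, differed by -0.22 (adjusted p = 0.389).

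The 3 pseudogenes, whose probes can also bind transcripts of the parent genes, had differences of -0.13 to -0.04. Leaving them out, a choice made after seeing the data, left a median of -0.08 over 83 members.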

How the data were processed

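Total RNA of BAT from 6 mice (3 DT, 3 PBS; groups and animal numbers from the sample titles), biotin-labelled, was run on Affymetrix arrays. The deposited values are log2 signals, 1 per Entrez gene, which the authors made with a custom chip definition file, RMA (named in the submitters' processing notes) and quantile normalization. The genome build is not given in the sources used here. Once sorted, 5 arrays held identical values and DT 5 differed from them by at most 0.00179. Arrays have no read depth, and their number limits the precision. Of 25206 features, 2021 had no symbol; these were tested but not named.

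DT was compared with PBS by limma (version 3.58.1, R 4.3.3; lmFit and eBayes, 2-sided). P values were adjusted over all features by the Benjamini-Hochberg method, and 0.05 was the threshold. SE and 95% intervals are those of the moderated fit. The study's own mixed-model analysis of variance could not be repeated, since its terms are not given. Groups are called apart where all 3 DT values lie on 1 side of all 3 PBS values. The script was tested on simulated data. Named genes were all called members, the 2 largest differences in each direction and the 2 smallest p in each complex, isoform families, complex II and up to 4 genes of each list; other members are named where a result turns on them. The members and lists were chosen with earlier results of these data known. Alternatives were repeated quantile normalization, median centring, cyclic loess, 2 filters on low signal, array weights, a robust prior with an intensity trend, no moderation, unrevised symbols, bright members only, other thresholds and leaving out each array.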

Additional observations from a re-analysis of the deposited data

How the results depend on the processing

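No paired analysis was possible because the DT and PBS mice share no animal number. No member was called under repeated quantile normalization, median centring, cyclic loess, either filter on low signal, array weights, a robust prior with an intensity trend, no moderation (which called 0 of all features) or an adjusted p below 0.1. At an unadjusted p below 0.05 the count was 10. With each array left out in turn, 0 to 1 members were called (Cox7b, without PBS 18), 26 to 42 had groups apart in either direction (42 without PBS 18, a smaller comparison in which more features come apart by construction), the median difference was -0.0941 to -0.0655, and 84 intervals lay within 2-fold in every case. In these fits 14.5% to 17.9% of all features had all DT values below all PBS values, against 10.1% in the main fit. The smallest adjusted p of any member ranged from 0.0387 to 0.316 over all settings. Of 500 alternative values of the 36 named members, 475 kept their direction, their side of the threshold and their size within the replicate SD. Besides Cox7b, Cox6a1 was at 0.0031 under cyclic loess, and 23 values of 8 members with differences near 0 changed sign. Under cyclic loess Cox6b2 was at 0.0083 and Cox4i2 at 0.0287, and with array weights Cox6b2 was at 0.0109, Uqcr11 at -0.0043 and Sdhd at -0.0076. With arrays left out in turn, the differences ranged from -0.1315 to 0.1829 for Ndufs6, from -0.1498 to 0.0840 for Cox4i2, from -0.0808 to 0.1115 for Cox6b2, from -0.0689 to 0.0336 for Cox8a, from -0.0186 to 0.0511 for Cox8c, from -0.0651 to 0.0065 for Atp5g3, from -0.0461 to 0.0392 for Sdhd and from -0.0709 to 0.0786 for Uqcr11. The median of all features was -0.0126 in the main fit, -0.0128 with quantile normalization repeated, -0.0127 with median centring and -0.0014 under cyclic loess. The median of the members was -0.0778, -0.078, -0.0779 and -0.0726 in the same order. Signals near the array floor (the 5 members below 5.1) and at its top limit what can be read.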

Other observations

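Other mitochondrial genes encoded in the nucleus, chosen after values had been seen, had differences mainly below 0. The share was 97.4% for genes of mitochondrial ribosomal proteins and 79.2% for Timm and Tomm genes, against 54% of all features. Of 76 genes of mitochondrial ribosomal proteins, 74 had differences below 0, with a median of -0.14, and 0 were called. In 35 of the 76 (46.1%) all DT values lay below all PBS values. The same was seen in 10.1% of all features, and in 17.1% to 18.5% of features in the signal bands above 8. Of 24 Timm and Tomm genes, whose products import proteins into mitochondria, 19 had differences below 0, with a median of -0.07, 4 (16.7%) had all DT values below all PBS values and 0 were called. No test of the difference between these sets and the respiratory chain was made.

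Of the brown adipocyte markers, the deiodinase Dio2 was at 11.36, 11.58 and 11.63 in DT mice and at 10.84, 11.33 and 11.21 in PBS mice (difference 0.40, adjusted p = 0.278). The transcription factor Prdm16 was at 8.19, 7.88 and 7.97 in DT mice and at 8.30, 8.24 and 8.27 in PBS mice (difference -0.26, adjusted p = 0.299). By real-time RT-PCR the paper reports lower expression of thermogenic genes in cold-exposed BAT without Treg cells. It measured Dio2 and Prdm16 among them, and its text gives no direction for each gene. The coactivator Ppargc1a, a regulator of mitochondrial genes, was at 12.01, 12.10 and 12.37 in DT mice, with 11.47 in PBS 12 against 12.05 and 11.86 in PBS 18 and PBS 20.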
